A study of Mus musculus with 2 samples.

Results

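Of 27179 genes counted by RNA sequencing in MIN6 cells, 10 are described here: Stard10, Arap1, Camk1d, Dgkb, Igf2bp2, Cdkal1, Thada, Jazf1, Zmiz1 and Ube2e2. They are the mouse counterparts of genes assigned to human type 2 diabetes risk loci other than that of C2cd4a, and they were chosen by symbol. All 10 were found in the count table, and all 10 had a mean of at least 1 CPM (counts per 1000000 counts of the scaled library). MIN6 cells come from a mouse insulinoma, release insulin and stand in for pancreatic beta cells. They were infected with adenovirus (multiplicity of infection 100), and RNA was taken 72 to 96 h later. One group expressed C2cd4a fused to green fluorescent protein (C2cd4a-GFP) and the other the control construct (control-GFP). The titles and characteristics of the labels give this grouping, whereas the treatment text of both names the C2cd4a-GFP virus. The study asks what C2cd4a, itself a gene near a diabetes risk locus, does in beta cells, and the comparison made here asks how genes at other such loci stood when it was overexpressed.

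Human risk loci for type 2 diabetes mostly lie in non-coding DNA, and the gene that each acts through is usually assigned by distance or by expression data. Many of the assigned genes are used in beta cells, where glucose metabolism closes ATP-sensitive potassium channels, calcium enters and insulin granules are released. The 10 genes take part in lipid transfer and membrane traffic (Stard10, Arap1), in calcium and diacylglycerol signalling (Camk1d, Dgkb), in RNA binding and tRNA modification (Igf2bp2, Cdkal1), in transcription (Jazf1, Zmiz1) and in ubiquitin transfer (Ube2e2). Thada is a large protein of less settled function.

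There was 1 library per group, with 30164106 counts for C2cd4a-GFP and 31039999 for control-GFP, so no difference has a replicate check and no p-value was computed from the counts. Intervals are exact 95% intervals, cover counting error only and say nothing of the spread between cultures. A bare value for a gene is its log2 ratio of C2cd4a-GFP over control-GFP, followed in parentheses by that interval or, for the authors' values, by an adjusted p. C2cd4a itself had 49238 counts against 133 (C2cd4a-GFP first, as throughout), in the direction of the labels. Reads of the construct and of the cells' own transcript cannot be told apart in that count. All 10 beta-cell markers were detected, with summed levels of 77550 and 88700 CPM, and Ins1 (-0.91) and Slc2a2 (-0.77) were lower on the log2 scale by the size rule given below. Of 25 markers of alpha, delta, PP, acinar, ductal, fibroblast, endothelial and immune cells, Gcg was the only one to differ by that rule (2292 against 1511 counts), while defining markers such as Krt19, Sox9, Dcn, Pdgfra, Cdh5, Kdr, Cpa1 and Pnlip had 0 counts in both libraries. Other markers of those lists were counted at low levels, such as Pecam1 (66 and 59 counts), Cd68 (62 and 55), Cela1 (34 and 35), Muc1 (23 and 21), Col1a2 (21 and 15) and Col1a1 (12 and 24). Summed levels of the alpha-cell list were 79.3 and 53.1 CPM, and no other list summed to more than 2.16 CPM. Their part in the ratios was not tested. In bulk RNA, fewer cells of a type and less RNA per cell cannot be told apart.

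A gene was called higher or lower where the ratio of the libraries was at least 1.5-fold with a counting interval that excluded equality. By this size rule 1 of the 10 genes was higher (Camk1d) and 0 were lower. Among the 12759 genes tested, whose mean was 1 CPM or more, 4.23% were higher, 4.23% lower and 8.46% either. These calls, 540 in each direction, became 682 higher and 453 lower when libraries were scaled by total counts, with the count of the 10 genes as before. Of the 10 genes, 0 rose and 0 fell at the 0.05 threshold for adjusted p of the authors' deposited table (DESeq2), where 7.0% of 14619 genes rose and 6.58% fell (13.6% either). At an unadjusted p under 0.05 the authors' deposited table has 3 of the 10, of which Camk1d and Jazf1 were higher and Arap1 lower, against 25.9% of genes in either direction. The log2 ratio of C2cd4a-GFP over control-GFP had a median of 0.20 over the 10 genes and of -0.01 over all genes tested, with 6 of the 10 above equality and 4 below, against 6273 and 6486 of all genes. The median over the 10 genes was -0.01 after removal of its trends with GC content and exon length, against -0.03 over all genes. Counting intervals lay above equality for 5 of the 10 genes (30.6% of all genes) and below it for 3 (33.0%), so that 8 of 10 excluded it (63.5%), while those of Igf2bp2 and Dgkb held it. For 9 of the 10 the log2 ratio lay within 0.5 of equality, as it did for 87.0% of all genes. Camk1d was the exception.

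**Figure D1:**
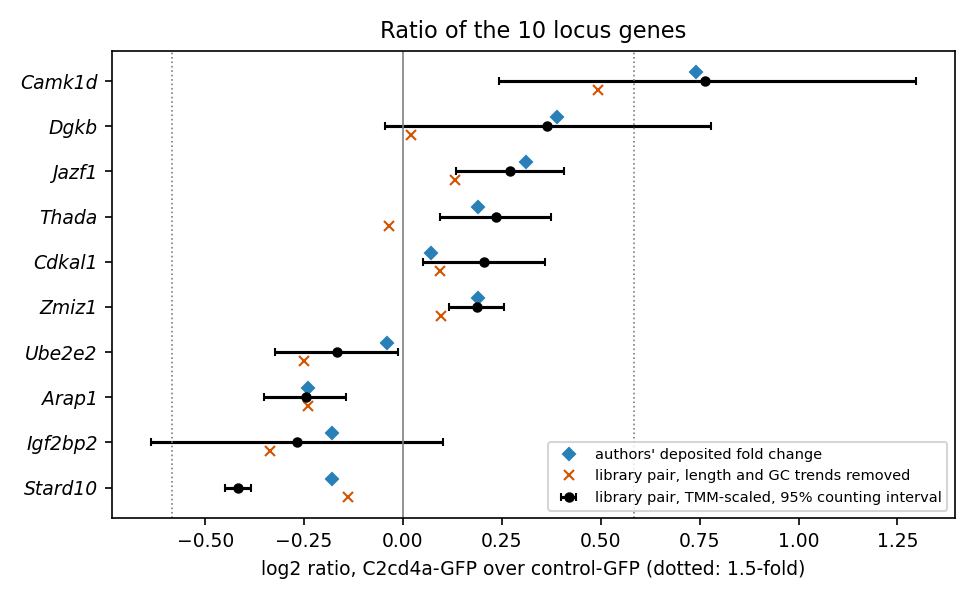
Log2 ratio of C2cd4a-GFP over control-GFP for each of the 10 genes, with 95% counting intervals (black), the authors' deposited log2 fold change (blue) and the ratio after removal of exon length and GC trends (orange); dotted lines mark 1.5-fold. Camk1d alone lies past 1.5-fold (0.76), and its ratio with the trends removed does not (0.49).

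**Figure D2:**
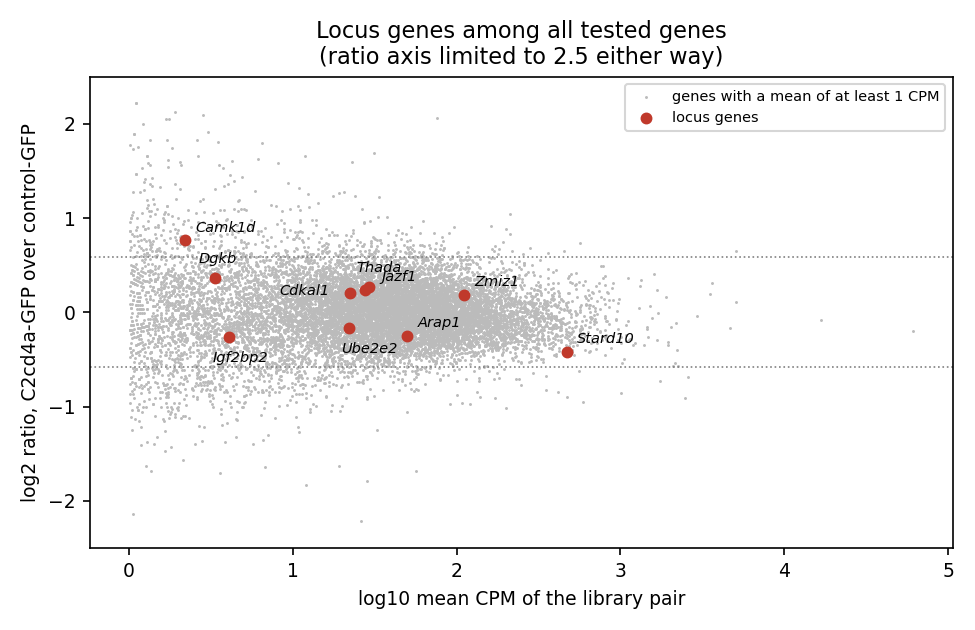
Log2 ratio of C2cd4a-GFP over control-GFP against log10 mean CPM for all 12759 tested genes (grey) and the 10 locus genes (red), with dotted lines at 1.5-fold and the ratio axis limited to 2.5 either way. Camk1d, Dgkb and Igf2bp2 lie among weakly counted genes, where ratios scatter most, and Stard10 lies among the most strongly counted.

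Promoter sequences are shown for the gene that met the size rule and for the neighbouring pair at the Stard10 and Arap1 locus, both lower in the C2cd4a-GFP library. Each runs 5′ to 3′ on the strand of the gene, from 250 bases before to 50 after a RefSeq start (GRCm38.p6), with every CG dinucleotide in capitals. Arap1 is taken from chr7:101347819-101348118 (plus strand), Stard10 from chr7:101316836-101317135 (plus strand) and Camk1d from chr2:5714713-5715012 (minus strand).
Arap1: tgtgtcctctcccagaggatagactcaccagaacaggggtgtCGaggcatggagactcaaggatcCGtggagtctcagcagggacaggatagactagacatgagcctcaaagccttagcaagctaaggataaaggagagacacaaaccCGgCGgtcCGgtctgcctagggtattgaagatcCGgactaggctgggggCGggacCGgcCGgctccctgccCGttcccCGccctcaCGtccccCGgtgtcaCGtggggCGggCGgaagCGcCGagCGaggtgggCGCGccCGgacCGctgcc
Stard10: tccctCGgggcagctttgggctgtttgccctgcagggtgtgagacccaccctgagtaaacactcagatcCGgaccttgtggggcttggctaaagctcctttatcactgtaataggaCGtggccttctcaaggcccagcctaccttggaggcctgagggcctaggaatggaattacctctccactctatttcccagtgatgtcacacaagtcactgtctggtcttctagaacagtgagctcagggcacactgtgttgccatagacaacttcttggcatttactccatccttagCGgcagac
Camk1d: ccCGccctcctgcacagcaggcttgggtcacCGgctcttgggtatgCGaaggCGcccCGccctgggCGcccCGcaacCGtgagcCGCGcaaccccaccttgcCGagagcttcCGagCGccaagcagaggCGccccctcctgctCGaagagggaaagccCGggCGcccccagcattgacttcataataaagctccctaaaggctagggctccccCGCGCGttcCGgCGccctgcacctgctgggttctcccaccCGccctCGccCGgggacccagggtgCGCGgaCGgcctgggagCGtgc
The Camk1d stretch holds 29 CG dinucleotides, the Arap1 stretch 23 and the Stard10 stretch 4. Of 32851 RefSeq promoters of the same length, 12.9% hold at least as many as Camk1d, 21.5% as many as Arap1 and 68.6% as many as Stard10, and the median is 7. The RefSeq start of Arap1 is that of its first counted exon, and the RefSeq start of Camk1d lies 98 bases from that of its own. The RefSeq start of Stard10 lies 4233 bases upstream of the first exon that was counted, so reads from such a first exon would not be in its count. RefSeq promoters were found for all 10 genes, with 47 CG dinucleotides at Igf2bp2, 39 each at Jazf1 and Ube2e2, and 3 at Dgkb. Of those with 39 or more, Jazf1 was above equality and Igf2bp2 and Ube2e2 were below it, though the interval of Igf2bp2 held equality. A relation between CG count and ratio was not tested.

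Levels per exon length set Stard10 far above the other genes and Camk1d, Dgkb and Igf2bp2 below them. Stard10 was at 337.2 CPM per kb of exon for C2cd4a-GFP and 450.4 for control-GFP, higher than 98.6% and 98.8% of tested genes. Next on this scale came Ube2e2 at 15.2 and 17.1 and Zmiz1 at 15.6 and 13.7. Counting intervals of Ube2e2 and Zmiz1 were apart in the control-GFP library and overlapped in the C2cd4a-GFP library, where their order was not resolved. Arap1 (8.52), Jazf1 (8.51) and Cdkal1 (8.19) had neighbouring CPM per kb in the control-GFP library with intervals that overlapped. In the C2cd4a-GFP library Arap1 was at 7.18, below Jazf1 at 10.3 and Cdkal1 at 9.45, whose intervals overlapped each other. Thada was at 3.79 and 3.23 CPM per kb. The lowest levels were those of Igf2bp2 (0.955 and 1.15), Dgkb (0.683 and 0.531) and Camk1d (0.390 and 0.230). Intervals of Igf2bp2 and Dgkb overlapped in the C2cd4a-GFP library. On this scale Camk1d exceeded 1.94% of tested genes for C2cd4a-GFP and 0.776% for control-GFP.

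**Figure D3:**
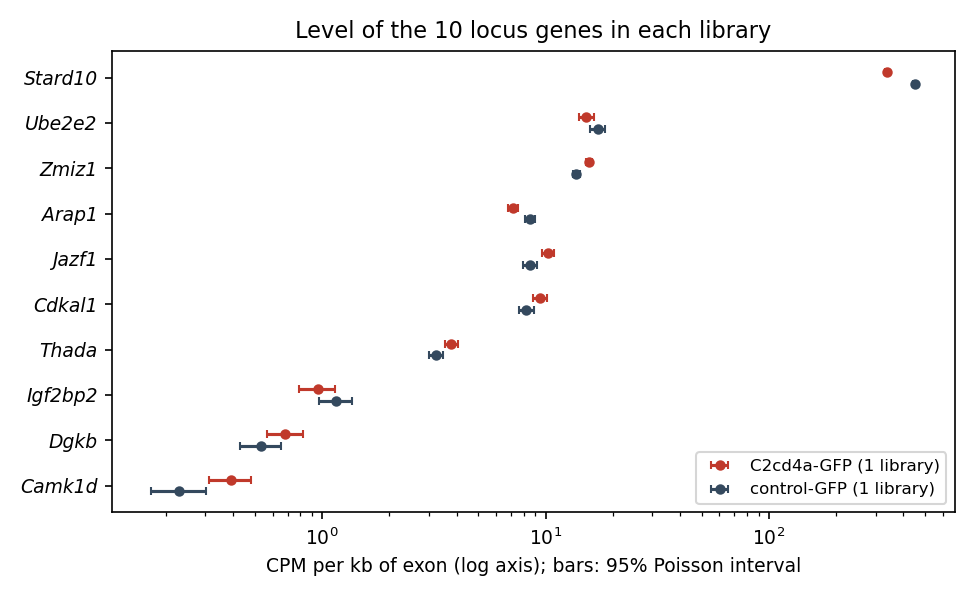
Level of each of the 10 genes as CPM per kb of exon (log axis) in the C2cd4a-GFP library (red) and the control-GFP library (dark), 1 library each, with 95% Poisson intervals of the count. Stard10 stands above the other genes in both libraries (337.2 and 450.4), and Camk1d is lowest in both (0.39 and 0.23).

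Stard10 and Arap1, neighbours that share a risk locus in humans, were both lower in the C2cd4a-GFP library. Stard10 encodes a START-domain protein that transfers phospholipids and takes part in insulin granule formation in mouse beta cells. Stard10 (gene ID 56018, mm10 chromosome 7, 101321319 to 101346312, plus strand, 7 exon intervals) was read 12368 times for C2cd4a-GFP and 16502 times for control-GFP. In CPM the levels were 404.0 and 539.6, lower by 1.34-fold in the C2cd4a-GFP library (log2 ratio -0.42, -0.45 to -0.38). Of all tested genes 19.1% had a ratio at least as far from equality. The counting interval is narrow because Stard10 had the most counts of the 10. Uncorrected, the ratio of Stard10 was the lowest of the 10 genes, but neither that rank nor its size held. It was at -0.18 in the authors' deposited table (adjusted p = 0.61) and at -0.14 with the exon length and GC trends removed. Arap1 was lower, at -0.24 in both, and with the trends removed Igf2bp2 (-0.34) and Ube2e2 (-0.25) were lower still.

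Arap1 encodes a GTPase-activating protein for Arf GTPases that acts in membrane traffic. Arap1 (gene ID 69710, mm10 chromosome 7, 101348069 to 101412586, plus strand, 36 exon intervals) begins 1756 bases after the end of Stard10. It had 1397 counts against 1655, or 45.6 and 54.1 CPM, at a log2 ratio (95% interval) of -0.25 (-0.35 to -0.14). The authors' deposited table has -0.24 for it (adjusted p = 0.172), and removing both trends gave -0.24. Counts of Stard10 were 8.85 times those of Arap1 for C2cd4a-GFP and 9.97 times for control-GFP. That log2 difference of -0.17 (-0.28 to -0.06) needs no scaling between libraries but keeps the trends with exon length and GC content. Its direction reversed with both trends removed (Stard10 -0.14, Arap1 -0.24) and in the authors' deposited table (-0.18 and -0.24). Atg16l2, on the other side of Stard10, was also lower, with 949 counts against 1151 (log2 ratio -0.28, -0.406 to -0.155). It was at -0.23 with both trends removed and at -0.07 in the authors' deposited table (adjusted p = 0.86). Beyond Arap1, after 9104 bases, lies Pde2a, a cyclic nucleotide phosphodiesterase gene, which went the other way. Pde2a had 354 counts against 191 (log2 ratio 0.89, 0.63 to 1.15) and rose by the authors' deposited table (0.91, adjusted p = 4.46e-08). Counts of Pde2a were 0.253 times those of Arap1 for C2cd4a-GFP and 0.115 times for control-GFP, and the interval of the log2 difference ran from 0.86 to 1.42.

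Relatives of these genes differed in direction too. Arap2, of the same domain structure as Arap1, had 424 counts against 245 (log2 ratio 0.79, 0.56 to 1.02) and met the size rule, while the authors' deposited table has 0.56 (adjusted p = 0.0577). With the exon length trend removed it was 0.58, and with both trends removed 0.42, each under the 1.5-fold limit. Its level was well under that of Arap1, which made up 78.7% of the summed CPM per kb of Arap1, Arap2 and Arap3 for C2cd4a-GFP and 88.2% for control-GFP. Arap3 had 10 and 8 counts. Of the START-domain genes, Pctp, a phosphatidylcholine transfer protein, was at -0.39 (-0.67 to -0.12), Stard7 at 0.11 and the ceramide transporter gene Col4a3bp at 0.18. None of these passed the threshold of the authors' deposited table.

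Camk1d, a calcium/calmodulin-dependent protein kinase gene, had the ratio farthest from equality among the 10 genes. Camk1d is switched on by calcium-bound calmodulin and by phosphorylation from CaMKK kinases. Camk1d (gene ID 227541, mm10 chromosome 2, 5293457 to 5714664, minus strand, 11 exon intervals) was read 85 times for C2cd4a-GFP and 50 times for control-GFP. In CPM the levels were 2.78 and 1.64, higher by 1.70-fold in the C2cd4a-GFP library (log2 ratio 0.76, 0.24 to 1.30). Among all tested genes 4.19% had a ratio at least as far from equality. For Camk1d the authors' deposited table has 0.74, with an adjusted p of 0.0687 that misses the threshold. Removing the exon length trend gave 0.56, and removing both trends 0.49, each under the 1.5-fold limit.

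Of the other CaMK cascade genes, 5 had a mean of at least 1 CPM, with 2 above equality and 3 below, and Camk1g alone met the size rule. Camk1g, the gamma isoform, had 72 counts against 152 (log2 ratio -1.08, -1.51 to -0.67) and, by the authors' deposited table, it fell (-1.11, adjusted p = 8.97e-06). Camk1 was at -0.40 (-0.53 to -0.28) and missed the threshold of the authors' deposited table (-0.21, adjusted p = 0.424). Of the upstream kinases, Camkk1 was at -0.38 (-0.51 to -0.25) and fell in the authors' deposited table (-0.39, adjusted p = 0.0019), whereas Camkk2 was at 0.01 (-0.10 to 0.12). Camk4 was at 0.16 (-0.06 to 0.38), and the brain isoform Pnck had 8 and 7 counts. Within a library, counts of Camk1d were 1.18 times those of Camk1g for C2cd4a-GFP and 0.329 times for control-GFP, a log2 difference of 1.84 (1.16 to 2.53). Against Camk1 the same difference was 1.17 (0.63 to 1.72). Per exon length Camk1 was the most abundant of the catalytic isoforms, at 21.9 and 29.0 CPM per kb against 0.39 and 0.23 for Camk1d.

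Dgkb, a calcium-sensitive diacylglycerol kinase gene, was weakly counted. It converts diacylglycerol, a second messenger, to phosphatidic acid. Dgkb (gene ID 217480, mm10 chromosome 12, 37880705 to 38633410, plus strand, 25 exon intervals) had 116 counts against 90, or 3.79 and 2.94 CPM. Its log2 ratio of 0.36 (-0.05 to 0.78) held equality, and no difference was detectable at this depth. For this gene 0.39 stands in the authors' deposited table (adjusted p = 0.239), and the ratio was 0.02 with both trends removed. Dgkb made up 1.06% of the summed CPM per kb of 9 diacylglycerol kinase genes for C2cd4a-GFP and 0.803% for control-GFP, where Dgkd and Dgkz led with 21.1 and 21.4 CPM per kb. The 8 other diacylglycerol kinase genes lay on both sides of equality, 3 above and 5 below, with a median log2 ratio of -0.07. Dgkg was at 0.42 (0.29 to 0.56) and Dgkh at 0.53 (0.29 to 0.78). Dgka lay below equality, at -0.24 (-0.44 to -0.04). With both trends removed Dgkg was at 0.27, Dgkh at 0.31 and Dgka at -0.19. Of the 8 genes 0 passed the threshold of the authors' deposited table, with Dgkg at an adjusted p of 0.0595. At an unadjusted p under 0.05 there were 2 of the 8, Dgkg above equality (0.35) and Dgka below it (-0.33).

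Igf2bp2 and Cdkal1, which act on RNA, lay on either side of equality. Igf2bp2 binds messenger RNAs, that of Igf2 among them, and controls their stability and translation. Igf2bp2 (gene ID 319765, mm10 chromosome 16, 22059009 to 22163299, minus strand, 16 exon intervals) had 114 counts against 137, or 3.72 and 4.48 CPM, at a log2 ratio (95% interval) of -0.27 (-0.64 to 0.10). A difference was not detectable at this depth, and the authors' deposited table has -0.18 (adjusted p = 0.571). Igf2bp2 was the only one of its family with counts. Igf2bp1 and Igf2bp3, which are mainly fetal, had 0 counts for C2cd4a-GFP and for control-GFP, so up to 0.098 CPM of either could have gone uncounted.

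Cdkal1 is a methylthiotransferase that modifies a lysine tRNA and so supports faithful translation of proinsulin in mouse beta cells. Cdkal1 (gene ID 68916, mm10 chromosome 13, 29325306 to 29855588, minus strand, 16 exon intervals) had 734 counts against 636, or 24.0 and 20.8 CPM. The log2 ratio was 0.21 (0.05 to 0.36), and the authors' deposited table has 0.07 (adjusted p = 0.783). The ratio was 0.09 with both trends removed. Its relative Cdk5rap1, which modifies mitochondrial tRNAs, was at -0.14 (-0.30 to 0.03), and Cdk5, the kinase behind both names, at -0.32 (-0.42 to -0.23). Neither passed the threshold of the authors' deposited table.

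Thada was first found as a gene disrupted in thyroid adenomas, and in Drosophila its loss makes flies obese and cold sensitive. Thada (gene ID 240174, mm10 chromosome 17, 84190056 to 84466208, minus strand, 38 exon intervals) had 917 counts against 779, or 29.95 and 25.5 CPM, at a log2 ratio (95% interval) of 0.23 (0.09 to 0.37). For this gene 0.19 stands in the authors' deposited table (adjusted p = 0.568). The ratio was 0.01 with the exon length trend removed and -0.04 with both removed, so its direction depended on that step. Zfp36l2, an mRNA decay factor whose gene lies 2.109 kb away, had 1012 counts against 700 (log2 ratio 0.53, 0.39 to 0.67) and rose by the authors' deposited table (0.52, adjusted p = 0.00402). Counts of Thada relative to Zfp36l2 were lower in the C2cd4a-GFP library by a log2 difference of -0.30 (-0.50 to -0.10).

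The transcription-related genes Jazf1 and Zmiz1 were both slightly higher in the C2cd4a-GFP library. Jazf1 is a zinc finger protein that joins the NuA4/TIP60 acetyltransferase complex and binds the nuclear receptor Nr2c2. Jazf1 (gene ID 231986, mm10 chromosome 6, 52768068 to 53068624, minus strand, 6 exon intervals) had 974 counts against 806, or 31.8 and 26.4 CPM. The log2 ratio was 0.27 (0.14 to 0.41), and the authors' deposited table has 0.31 (adjusted p = 0.103). With both trends removed it was 0.13. Its 5 listed partners also lay above equality, with a median of 0.35, or 0.11 with both trends removed, except that Ep400 was at -0.01 with the exon length trend removed. They are Epc1 (0.47, 0.37 to 0.57), Nr2c2 (0.42), Suz12 (0.35, fused to JAZF1 in some human endometrial tumours), Ep400 (0.28) and the acetyltransferase gene Kat5 (0.12). Epc1, a scaffold of the NuA4/TIP60 complex, rose by the authors' deposited table (0.43, adjusted p = 0.000816), and the other 4 did not pass there.

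Zmiz1 is a PIAS-like coactivator that takes part in SUMO-linked control of transcription. Zmiz1 (gene ID 328365, mm10 chromosome 14, 25459185 to 25666747, plus strand, 24 exon intervals) had 3599 counts against 3159, or 117.5 and 103.3 CPM, at a log2 ratio (95% interval) of 0.19 (0.12 to 0.26). For this gene 0.19 stands in the authors' deposited table (adjusted p = 0.573). Its direction depended on the correction, at -0.03 with the exon length trend removed and 0.10 with both removed. Its paralog Zmiz2 was at -0.28 (-0.34 to -0.22), with 4451 counts against 5402, and at -0.23 in the authors' deposited table (adjusted p = 0.174). Counts of Zmiz1 were 0.809 times those of Zmiz2 for C2cd4a-GFP and 0.585 times for control-GFP, a log2 difference of 0.47 (0.38 to 0.56). That difference keeps the trends with exon length and GC content. With both removed the gap was smaller, with Zmiz1 at 0.10 and Zmiz2 at -0.18. The Pias genes ran from -0.13 (Pias4) to 0.30 (Pias2), and none passed the threshold of the authors' deposited table.

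Ube2e2, an E2 ubiquitin-conjugating enzyme gene, was slightly lower in the C2cd4a-GFP library. Ube2e2 (gene ID 218793, mm10 chromosome 14, 18573577 to 18893627, minus strand, 6 exon intervals) had 641 counts against 719, or 20.9 and 23.5 CPM, at a log2 ratio (95% interval) of -0.17 (-0.32 to -0.01). For this gene -0.04 stands in the authors' deposited table (adjusted p = 0.901), and the ratio was -0.25 with both trends removed. Its close relatives lay on the other side, with Ube2e1 at 0.10 (-0.01 to 0.21) and Ube2e3 at 0.19 (0.11 to 0.27), and neither passed the threshold of the authors' deposited table. Ube2e2 made up 15.0% of the summed CPM per kb of the 3 genes for C2cd4a-GFP and 18.0% for control-GFP. Relative to Ube2e3 its counts were lower in the C2cd4a-GFP library by a log2 difference of -0.36 (-0.53 to -0.18). The coding regions of these relatives are similar, so how some reads divide between them is uncertain.

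**Figure D4:**
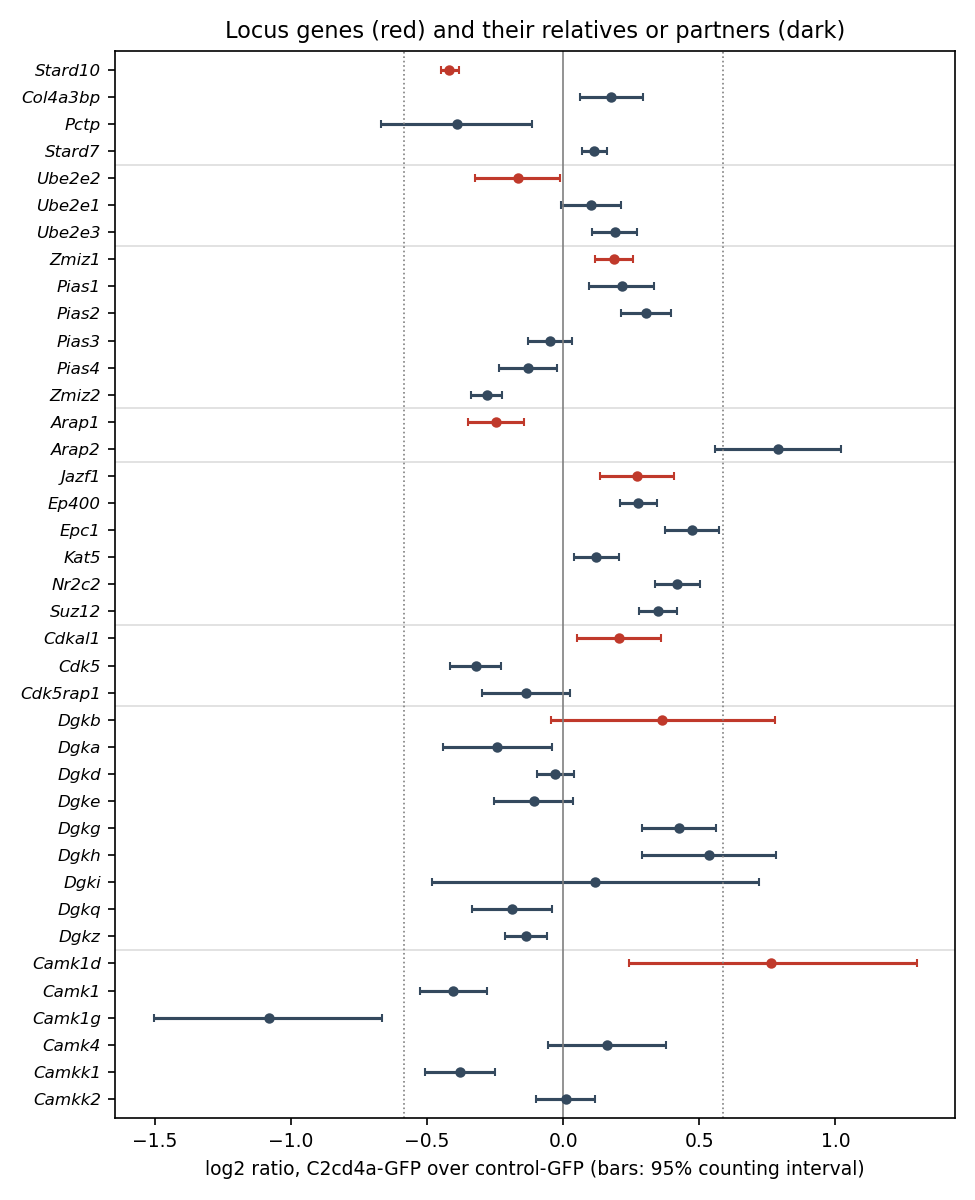
Log2 ratio of C2cd4a-GFP over control-GFP, with 95% counting intervals, for locus genes (red) and their relatives or partners with a mean of at least 1 CPM (dark). Dotted lines mark 1.5-fold. Igf2bp2 and Thada, which have no such relative or partner listed, are not drawn. Camk1g (-1.08) and Arap2 (0.79) are the 2 relatives past 1.5-fold, each on the other side of equality from its locus gene.

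Over all 35 relatives and partners, 31 had a mean of at least 1 CPM. Camk1g was lower and Arap2 higher by the size rule (4.23% of all genes each way), and the median log2 ratio was 0.10, or -0.02 with both trends removed. In the authors' deposited table Epc1 rose, Camk1g and Camkk1 fell, and 29 of 32 with an adjusted p did not pass, where 13.6% of all genes passed.

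Most mouse neighbours of the 10 genes lay under the 1.5-fold limit. The nearest gene on each side with a mean of at least 1 CPM gave 18 distinct neighbours outside the set, with a median log2 ratio of 0.15 and 13 above equality, as were 6273 of all 12759 genes tested. With both trends removed the median was 0.03, against -0.03 over all genes. Of these, 2 met the size rule as higher (Pde2a beside Arap1 and Etv1 beside Dgkb) and 0 were lower, where 4.23% of all genes were called each way. Of the 18, 3 rose by the authors' deposited table, the third being Zfp36l2, and 0 fell, where 7.0% of all genes rose and 6.58% fell. Etv1, an ETS transcription factor gene 146.8 kb from Dgkb, had 1550 counts against 770 (log2 ratio 1.01, 0.88 to 1.13) and rose by the authors' deposited table (0.89, adjusted p = 9.92e-08). Counts of Dgkb relative to Etv1 were lower in the C2cd4a-GFP library by a log2 difference of -0.64 (-1.07 to -0.21). With no trend removed, the interval of Camk1d (0.24 to 1.30) did not overlap those of its neighbours Optn (0.03, -0.07 to 0.13) and Cdc123 (-0.05, -0.11 to 0.02). With both trends removed the gap was smaller, with Camk1d at 0.49, Optn at 0.08 and Cdc123 at -0.01. Cdc123 shares the human risk locus with CAMK1D. The ratio of Cdkal1 lay between those of its neighbours Sox4 (0.00) and E2f3 (0.27). That of Igf2bp2 (-0.27) was below those of both its neighbours, Senp2 (0.20) and Tra2b (0.17).

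**Figure D5:**
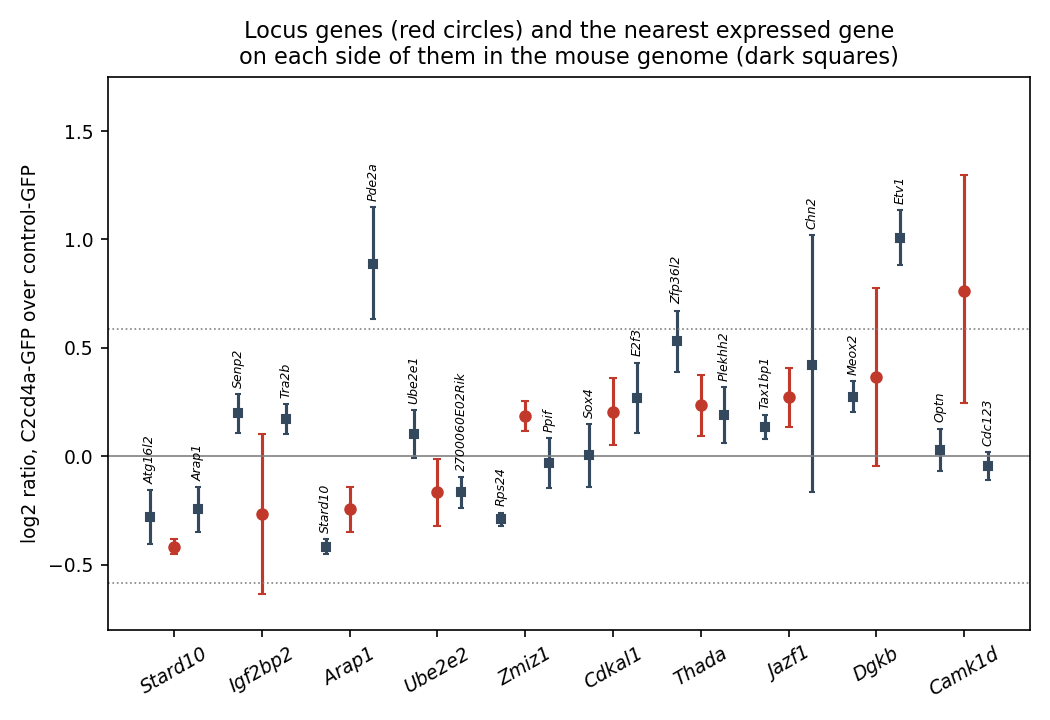
Log2 ratio of C2cd4a-GFP over control-GFP, with 95% counting intervals, for each of the 10 genes (red circles) and the nearest gene with a mean of at least 1 CPM on its lower and higher coordinate side (dark squares, left and right); dotted lines mark 1.5-fold. Pde2a (0.89) and Etv1 (1.01) are the neighbours past 1.5-fold, and Arap1 and Dgkb beside them are not.

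The genes share long genomic spans. From first to last counted exon, 8 of the 10 covered at least 100 kb, from 104.3 kb for Igf2bp2 to 752.7 kb for Dgkb, against 12.5% of all tested genes. The exceptions were Stard10 (25.0 kb) and Arap1 (64.5 kb). The 1594 tested genes of at least 100 kb had a median log2 ratio of 0.19, and the 11165 shorter genes of -0.04. The 8 long genes of the set had a median of 0.22 and the 2 short ones of -0.33. With exon length and GC trends removed, the medians over all long and all short genes were 0.00 and -0.03. The part of gene span in the ratios of the 10 genes was not tested beyond this. Counted overlaps were few: of 6 annotated genes that overlap Ube2e2, Zmiz1, Jazf1 or Dgkb, only 4931406H21Rik, within Zmiz1, had counts (4 and 2).

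A wider list held 79 genes assigned to type 2 diabetes risk loci other than that of C2cd4a. It includes some of the neighbours described above, Etv1, Pde2a and Cdc123 among them. Of the 79, 61 had a mean of at least 1 CPM, with a median log2 ratio of 0.00, and 4 of the other 18 had 0 counts in both libraries. By the size rule 5 of the 61 were higher and 1 lower, beside 4.23% of all genes each way. Of the 66 with an adjusted p, 10 rose and 2 fell by the authors' deposited table, beside 7.0% and 6.58% of all genes. Besides Etv1 and Pde2a, the higher genes were the cyclin gene Ccnd2 (0.71, 0.62 to 0.80), the nuclear receptor gene Pparg (0.97, 0.55 to 1.40) and the corepressor gene Tle4 (0.69, 0.35 to 1.03), each of which rose in the authors' deposited table. Pam, an enzyme gene of peptide amidation (0.51), Trp53inp1 (0.35) and Tle1 (0.35) also rose there, as did Spry2 and Irx5, while G6pc2 fell. Tm6sf2 was lower by the size rule on 23 counts against 43 and missed the threshold of the authors' deposited table. With both trends removed, Ccnd2 (0.50) and Tle4 (0.53) lay under the 1.5-fold limit, and Etv1, Pparg and Pde2a lay above it. Before that removal Camk1d, the highest of the 10 genes described above at 0.76, lay above Ccnd2 and Tle4 and below Etv1, Pparg and Pde2a. Its interval (0.24 to 1.30) held the ratios of these genes, so their order against it was not resolved. After the removal Camk1d was at 0.49, below all of them. Tcf7l2, at the locus of largest common effect in humans, had 2 counts against 1, too few for a ratio.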

How the data were processed

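Poly-A RNA libraries that keep strand were made from MIN6 cells and read as 42 bp pairs, per the labels' protocols. Per the submitters' processing notes, the tools were DESeq2 1.14.1, featureCounts, STAR 2.5.2b and Subread 1.5.2, on mm10. Their roles and the strand setting of the counting are not given in the sources used here. The authors deposited whole-number counts per gene with exon coordinates. They also deposited a log2 fold change with p-values and adjusted p-values, taken to come from DESeq2, and 1 normalized value per gene and condition (treated as a score). The number of libraries behind these is not stated there either, and they may rest on the 2 counted libraries in part.

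Counts were scaled with TMM factors (edgeR 4.0.16 in R 4.3.3) and given as CPM, or CPM per kb of summed exon length. Ratios carry exact Clopper-Pearson 95% intervals conditional on the summed count, and levels exact Poisson intervals. Without molecular identifiers, intervals and floors cover counting error only. The floor for a count of 0 was 3 counts. No replicate test could be fitted, as each group has 1 library. The procedure was tested on simulated Poisson counts, which hold counting error only, so that test says nothing of the spread between cultures. A gene is said to have risen or fallen only where the authors' deposited table gives it an adjusted p below 0.05. Ratios of counts between genes within a library carry exact conditional odds-ratio intervals, and the pairs were chosen after their values were seen. Trends with exon length and GC content were not removed from these ratios. Trends of the log2 ratio with GC content (longest GENCODE transcript per gene) and exon length were removed with lowess (span 0.3, statsmodels 0.14.6). GC content was found for 95.7% of tested genes and for all 10 described. Promoters are from RefSeq.

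The genes, lists and rules were chosen with earlier results of these data known. All 10 genes were named. Of their nearest neighbours only some were named, among them each that met the size rule or passed in the authors' deposited table. The remaining neighbours enter only the summaries and the plot of the 10 genes beside their neighbours. Up to 10 relatives and 10 wider-list genes that met the size rule or passed in that table were named, ranked by interval bound. Other relatives, Spry2, Irx5, G6pc2, Tcf7l2 and the markers were named after their values were seen. The wider list held TP53INP1 under its human name, read as mouse Trp53inp1. A gene that the rule names is not reported here.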

Additional observations from a re-analysis of the deposited data

How the results depend on the processing

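With scaling by total counts, by upper quartile or by size factors of DESeq2 1.42.0, with equal totals by thinning, with a prior count of 2, without a filter on low counts and with the authors' normalized values, 1 of the 10 genes stayed higher and 0 lower. The count of higher genes among the 10 was 0 with a minimum of 5 CPM, which leaves out Camk1d, with a 2-fold rule, with the exon length trend removed, and with the exon length and GC trends removed. A laxer fold limit, below that of the size rule, gave 1 lower gene, Stard10. Over all genes, higher and lower calls were 306 and 296 with a minimum of 5 CPM, 116 and 88 with the 2-fold rule, and 1769 and 1728 with the laxer limit. They were 344 and 373 with both trends removed, and 420 and 342 from the authors' normalized values. The median log2 ratio of the 10 genes was -0.011 with the exon length trend removed and -0.007 with both, and from 0.13 to 0.24 otherwise. Stard10 ran from -0.43 to -0.14 and Camk1d from 0.49 to 0.81. Zmiz1 (exon length) and Thada (both trends) were the genes of the 10 that crossed equality. The GC alternative in this form was added after seeing the data. No paired analysis was possible because each group has 1 library, and for the same reason no library could be left out. Igf2bp2, Dgkb and Camk1d, with 50 to 137 counts per library, are limited most by depth.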
